A study of Homo sapiens with 27 samples.

Results

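The interferon-stimulated genes described here were 39 human genes taken by symbol, and all 39 were matched to 1 identifier each among the 57905 genes of the deposited table. Their mRNA was measured by RNA-seq in U937, an established human line of leukaemic cells, used in the paper as a model of acute myeloid leukaemia. The control group (CT) received no matrine, and the paper's vehicle was ddH2O. The other groups received 0.8 mg/ml matrine, an alkaloid of the herb Sophora flavescens, for 30 min or for 24 h. Each group had 3 libraries, 9 in all, and the same 3 CT libraries served both times. No group was labelled as treated with an interferon, and the culture time of CT was not named, so time in culture and 24 h of matrine cannot be told apart. The labels do not say that the replicates came from separate cultures, so the p-values measure the spread between these libraries. Libraries held between 17314931 and 21930018 counts.

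Interferons are secreted proteins that cells release on sensing viral nucleic acid. They bind receptors coupled to JAK kinases, which phosphorylate STAT proteins. STAT2 and IRF9 are subunits of ISGF3, the complex that binds the interferon-stimulated response element (ISRE) in the promoters of many of these genes. Their products sense foreign RNA, degrade it, block its translation or mark proteins with ISG15, and several of them feed back on the pathway.

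After 24 h of matrine treatment the factor genes STAT2 and IRF7 rose 4.03-fold and 4.83-fold, and IFIT3, IFI6, IFI16, PARP14 and IRF1 rose between 1.89-fold and 2.38-fold, while the most abundant gene of the set, IFITM2, fell. After 30 min none of these genes was called. A gene was tested where its FPKM (fragment counts scaled by transcript length and library depth) averaged more than 1 across the 6 libraries compared. It was called up-regulated or down-regulated at an adjusted p below 0.05 (edgeR's quasi-likelihood test, Benjamini-Hochberg over all genes tested) and a fold change of at least 1.5. At 24 h 23 of the 39 genes were tested, of which 12 were up-regulated and 1 was down-regulated. Of all 12035 genes tested, 15.1% were up-regulated and 11.2% were down-regulated. The median log2 fold change of the 23 genes was 0.60, against 0.01 for all genes tested. In 16 of the 23 genes every 24 h library lay above every CT library, which held for 35.3% of all genes tested. In IFITM2 and MX2 every 24 h library lay below every CT library, which held for 34.5% of all genes. By the adjusted p alone, with no fold threshold, 14 of the 23 genes were higher and 3 were lower, against 31.5% and 31.8% of all genes. IFI30 and SAMD9L passed the filter only through their 24 h libraries, so that a difference was in part built into their passing it. Together the 39 genes took from 0.0638% to 0.0666% of the counts in CT, from 0.0628% to 0.0631% after 30 min and from 0.0793% to 0.0842% after 24 h. In bulk RNA, more cells that express a gene and more RNA per cell cannot be told apart.

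**Figure D1:**
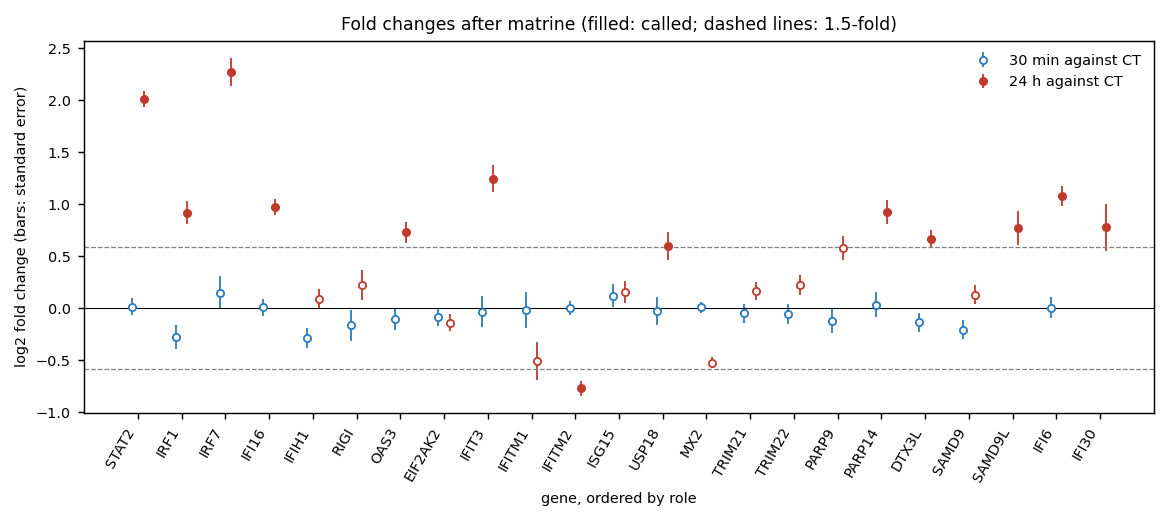
Log2 fold change of the 23 genes tested at 24 h, ordered by role, with bars of 1 standard error. Blue points are 30 min against CT and red points are 24 h against CT, filled where the gene was called, and the dashed lines mark a 1.5-fold change. The blue points lie between -0.29 and 0.15 and are all open, whereas 13 red points are filled, from -0.77 for IFITM2 to 2.27 for IRF7.

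The cells carried the markers of a myeloid line. Of 10 myeloid markers 8 had a mean FPKM above 1, among them LYZ and SPI1, whereas CD14 reached 0.26 FPKM at most. The T cell genes CD3D, CD3E and CD8A and the erythroid genes HBG1 and HBE1 were listed at 0 in every library. Of the 6 genes of the erythroid list 1, KLF1, had a mean FPKM above 1. The summed level per library lay between 4.33 and 5.41 FPKM for the B cell list and between 0.03 and 0.16 FPKM for the fibroblast and epithelial list. The summed level of the myeloid list was 1243 to 1399 FPKM in CT and 1722 to 1845 FPKM after 24 h. Most of it was ELANE, at 885.1 ± 86.1 FPKM (SD, n = 3) and 1378 ± 68.5 FPKM. MPO, ITGAM, CSF3R and ELANE were up-regulated at 24 h, with log2 fold changes of 2.50, 1.25, 1.12 and 0.59. MPO passed the filter only through its 24 h libraries. LYZ and SPI1 had log2 fold changes of -0.31 and -0.32, and those of CD4, FCGR1A and CD33 were 0.56, 0.21 and -0.07. None of these was called. For the plasmacytoid dendritic cell list, a cell type known for interferon release, the summed level was 2.04 to 2.41 FPKM in CT and 4.14 to 4.88 FPKM after 24 h. IL3RA alone was higher there, at 0.907 ± 0.155 FPKM (SD, n = 3) in CT and 3.50 ± 0.378 FPKM after 24 h, while the means of CLEC4C, LILRA4, TCF4 and GZMB were lower after 24 h and below 1 FPKM. The T and NK cell list, nearly all of it NKG7, stood at 161.2 to 184.7 FPKM in CT and 276.4 to 291.6 FPKM after 24 h. The part of these lists in the results was not tested.

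Many of the genes share the ISRE in their promoters, and the sequence of this element is shown here because it is the binding site through which interferons are known to act on them. Promoters of 300 bases, from 250 before to 50 after the start site, were taken from RefSeq (GRCh38.p14) and were found for 30 of the 39 genes. They were searched on both strands for the core of the ISRE, which is GAAA, any 2 bases and GAAA again. The core was present for 20 of these 30 genes (66.7%), against 4.38% of all 27305 genes with such a promoter and 3.58% of the 35093 promoters themselves. It lies in the following stretches, written 5′ to 3′ on the strand of the gene with the core in capitals (TTTC first where it lies on the other strand), of the 5 up-regulated genes that hold it:
IFIT3: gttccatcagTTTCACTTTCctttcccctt
IFI6: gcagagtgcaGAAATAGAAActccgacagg
PARP14: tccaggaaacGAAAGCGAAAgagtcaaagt
OAS3: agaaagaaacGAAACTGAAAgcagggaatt
DTX3L: ccagggaagcGAAACTGAAActttgcgccc
These stretches are chr10:89332468-89332497 (plus strand, the second of the IFIT3 promoters), chr1:27672266-27672295 (minus strand), chr3:122680800-122680829 (plus strand), chr12:112938321-112938350 (plus strand) and chr3:122564322-122564351 (plus strand). The stretch of DTX3L read on the other strand is also that of PARP9, since these neighbours are transcribed away from each other and their start sites lie close together. The core was also found in genes of the set that were tested and not called, of which 4 were chosen, with their values seen, for comparison:
ISG15: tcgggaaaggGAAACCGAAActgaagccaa
IFIH1: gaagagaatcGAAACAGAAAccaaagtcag
EIF2AK2: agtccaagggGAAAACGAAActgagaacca
SAMD9: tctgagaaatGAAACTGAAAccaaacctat
These are chr1:1013380-1013409 (plus strand), chr2:162318686-162318715 (minus strand), chr2:37156967-37156996 (minus strand) and chr7:93118096-93118125 (minus strand). For each gene 1 stretch is shown, although IFIT3, IFI6, OAS3, ISG15 and IFIH1 held more than 1 match. The stretch of ISG15 holds a further, overlapping match that is partly in small letters. Of the 10 up-regulated genes with a promoter 5 held the core, and of the 8 tested genes that were not called 7 held it. STAT2, IRF1, IFI16, IFI30 and SAMD9L were up-regulated with no core in this window. Among all other genes tested at 24 h, 13.3% of the 309 with the core and 13.3% of the 8257 without it were up-regulated. A match of letters is no measurement of binding. No promoter was found for DHX58, GBP2, IFIT2, IFITM2, IRF7, MX2, OAS2, TRIM22 and USP18.

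**Figure D2:**
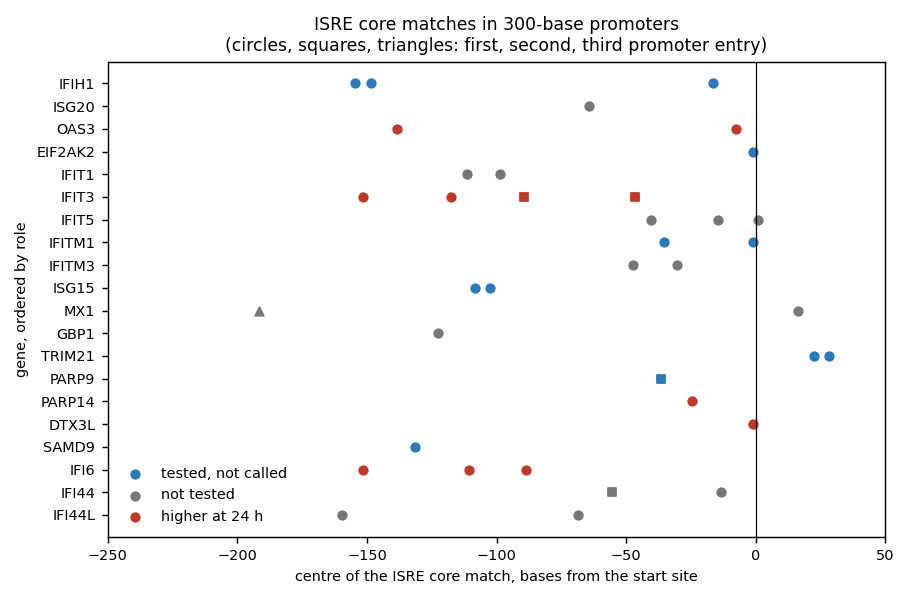
Position of each match of the ISRE core in the promoters of the 20 genes that hold it, in bases from the start site. Red marks genes up-regulated at 24 h, blue genes tested and not called, and grey genes not tested, and the marker shape gives the promoter where a gene has several. Of 38 matches 31 lie wholly before the start site, and red points begin between -156 and -6 and blue points between -159 and 24.

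The gamma-activated site (GAS), which binds STAT dimers, was searched as TTCNNNGAA and was present for 7 of the 30 genes (23.3%), against 9.38% of all genes with a promoter. It is shown for IRF1 and IRF9, factor genes chosen after the search because their promoters hold a GAS and no ISRE core, with the 9 bases of the site in capitals:
IRF1: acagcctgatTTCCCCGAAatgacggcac
IRF9: accacgtgatTTCTGGGAAaaggccctcc
They are chr5:132490879-132490907 (minus strand) and chr14:24161192-24161220 (plus strand). Over all 30 genes, 2 matches of the ISRE core overlapped a match of the GAS.

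Among the 23 tested genes the factor genes IRF7 and STAT2 had the largest log2 fold changes at 24 h. STAT2 (ENSG00000170581, chromosome 12, 56341597 to 56360203, minus strand, in GENCODE release 44 on GRCh38) stood at 3.39, 3.04 and 3.05 FPKM in CT, 3.22, 3.00 and 3.29 FPKM after 30 min, and 13.48, 13.17 and 12.92 FPKM after 24 h. The 24 h libraries lay far above all others, which overlapped. Its log2 fold change at 24 h was 2.01 (standard error 0.076, adjusted p = 6.4e-15, edgeR), the smallest adjusted p among the 23 genes. IRF7 (ENSG00000185507, chromosome 11, 612553 to 615983, minus strand), a factor that drives interferon genes and is itself induced by interferons, stood at 1.59, 2.04 and 1.91 FPKM in CT, 2.29, 1.61 and 2.18 FPKM after 30 min, and 9.98, 8.16 and 9.49 FPKM after 24 h. Every 24 h library of IRF7 exceeded every other library more than 3-fold, and its log2 fold change was 2.27 (standard error 0.139, adjusted p = 1.2e-11, edgeR). IRF1, an activator of interferon-responsive promoters with a short-lived mRNA, stood at 2.03, 1.9 and 1.95 FPKM in CT, 1.75, 1.25 and 1.82 FPKM after 30 min, and 3.99, 3.73 and 3.8 FPKM after 24 h. The 30 min libraries of IRF1 all lay below CT and the 24 h libraries all lay above it. Its log2 fold change was -0.28 at 30 min (adjusted p = 0.34, edgeR), which was not called and was -0.10 without replicate 2 of 30 min, and 0.92 at 24 h (standard error 0.110, adjusted p = 2.9e-07, edgeR). In GENCODE the exons of 20 of the 39 genes overlap another gene. The exons of IRF1 overlap those of IRF1-AS1 on the opposite strand, and without a stated strand setting their reads cannot be told apart. IRF9, the DNA-binding subunit of ISGF3, was too low to be tested, with 17, 8 and 19 counts in CT, 25, 27 and 34 counts after 30 min and 75, 69 and 48 counts after 24 h. Its groups did not overlap, at 0.207 ± 0.091 FPKM (SD, n = 3) in CT, 0.363 ± 0.071 FPKM after 30 min and 0.810 ± 0.202 FPKM after 24 h. Without the filter on FPKM its log2 fold change at 24 h was 1.88 (adjusted p = 1.1e-09, edgeR). That at 30 min was 0.85 (adjusted p = 0.28, edgeR) and was not called.

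**Figure D3:**
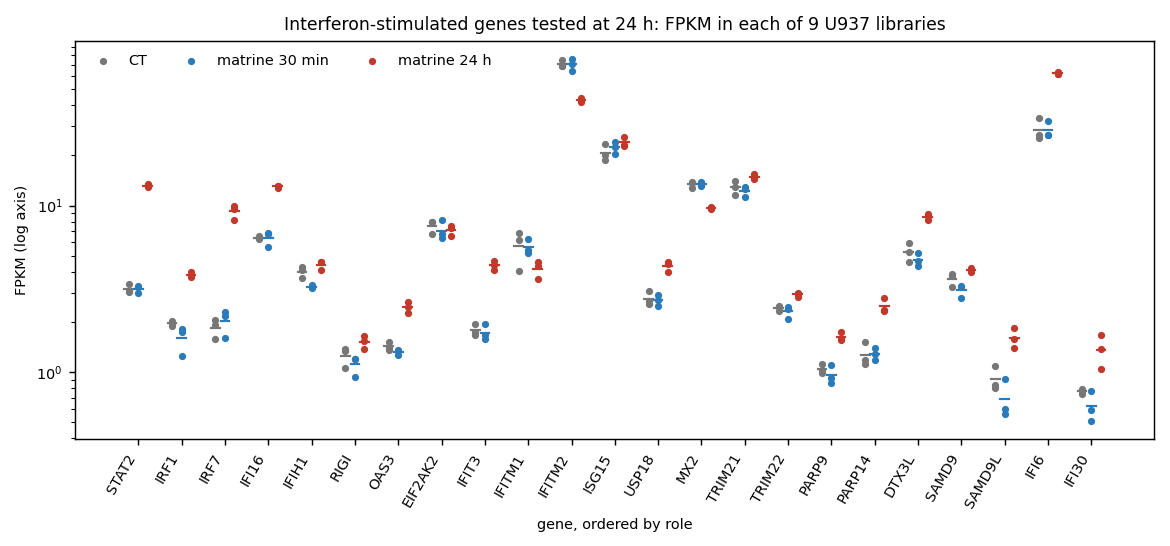
FPKM on a log axis of the 23 genes tested at 24 h in each of the 9 libraries, ordered by role, with a short line at the mean of each group. Grey points are CT, blue points 30 min and red points 24 h of matrine. The red points of STAT2 and IRF7 stand clear above the others, those of IFITM2 and MX2 stand below them, and those of ISG15 overlap.

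Of the sensors of nucleic acid IFI16 was the 1 gene called at 24 h. IFI16, a nuclear DNA sensor, stood at 6.59, 6.27 and 6.40 FPKM in CT, 6.71, 6.84 and 5.65 FPKM after 30 min, and 13.14, 13.10 and 12.80 FPKM after 24 h. It was up-regulated at 24 h (log2 fold change 0.97, standard error 0.076, adjusted p = 5.5e-10, edgeR), and its 24 h libraries did not overlap with the others. The RNA helicases that sense cytoplasmic viral RNA were not called. IFIH1 (MDA5) had a log2 fold change of 0.09 at 24 h. RIGI (RIG-I) stood at 1.25 ± 0.169 FPKM (SD, n = 3) in CT and 1.51 ± 0.136 FPKM after 24 h, a log2 fold change of 0.22. DHX58 (LGP2), a regulator of these helicases, had from 0 to 11 counts per library. IFIH1 had the smallest adjusted p of the set at 30 min, 0.16 (edgeR), with a log2 fold change of -0.29. It stood at 4.27, 4.09 and 3.66 FPKM in CT, 3.20, 3.34 and 3.23 FPKM after 30 min, and 4.6, 4.58 and 4.09 FPKM after 24 h, so that the 30 min libraries lay below CT while those of 24 h overlapped with it.

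The antiviral enzymes that act on RNA were mostly low in these cells. OAS1, OAS2 and OAS3 make 2′-5′-linked oligoadenylates, which activate RNase L, and lie next to each other on chromosome 12 between 112905856 and 113011723. OAS3 stood at 1.42, 1.36 and 1.52 FPKM in CT, 1.34, 1.26 and 1.35 FPKM after 30 min, and 2.65, 2.47 and 2.25 FPKM after 24 h. It was up-regulated at 24 h (log2 fold change 0.73, standard error 0.099, adjusted p = 1.7e-06, edgeR), with no overlap between the groups. OAS1 had 13, 16 and 27 counts in CT, 21, 18 and 16 counts after 30 min, and 125, 124 and 99 counts after 24 h. All 24 h libraries were well above the others, and without the filter on FPKM its log2 fold change was 2.38 (adjusted p = 6.2e-21, edgeR), the largest of the genes under the filter with more than 10 counts over the 9 libraries. OAS2 had from 19 to 21 counts in CT and from 40 to 52 counts after 24 h. EIF2AK2 (PKR), the kinase that halts translation on double-stranded RNA, was not called, at 7.57 ± 0.711 FPKM (SD, n = 3) in CT and 7.11 ± 0.495 FPKM after 24 h. ISG20, an RNA exonuclease, had from 15 to 37 counts in CT and from 38 to 61 counts after 24 h.

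IFIT proteins bind viral RNA that lacks the cap structure of the host, and their genes lie together on chromosome 10 between 89283694 and 89421605. IFIT3 was the 1 gene of the family above the filter, at 1.68, 1.74 and 1.95 FPKM in CT, 1.93, 1.57 and 1.67 FPKM after 30 min, and 4.41, 4.63 and 4.11 FPKM after 24 h. The 24 h libraries of IFIT3 all lay above CT, and its log2 fold change was 1.25 (standard error 0.134, adjusted p = 6.2e-08, edgeR). IFIT1, IFIT2 and IFIT5 had between 5 and 47 counts per library. Without the filter IFIT2 was called higher at 24 h with a log2 fold change of 1.54 (adjusted p = 2.2e-05, edgeR) and IFIT1 with one of 1.17 (adjusted p = 0.0089, edgeR), while IFIT5 was not, at 0.39 (adjusted p = 0.51, edgeR).

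Of the IFITM genes, whose proteins sit in membranes and hinder virus entry, IFITM2 fell. IFITM2 (ENSG00000185201, chromosome 11, 303655 to 309397, plus strand) had the highest mean level of the 39 genes and stood at 68.54, 75.22 and 68.93 FPKM in CT, 70.82, 64.61 and 76.05 FPKM after 30 min, and 42.53, 41.89 and 44.47 FPKM after 24 h. All 24 h libraries lay below all others. IFITM2 was the 1 down-regulated gene of the set at 24 h (log2 fold change -0.77, standard error 0.073, adjusted p = 9.1e-09, edgeR). IFITM1 stood at 6.19, 6.84 and 4.06 FPKM in CT and 4.55, 4.36 and 3.6 FPKM after 24 h, with overlap between the groups. Its log2 fold change was -0.51 (adjusted p = 0.018, edgeR), under the threshold of 1.5-fold, and without replicate 3 of CT, the low library, it was -0.70 and called. IFITM3 had from 0 to 4 counts per library. The 3 genes are close copies side by side on chromosome 11, and how the counting split shared reads was not stated, so the level of each carries that limit.

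In the ISG15 system the protease gene USP18 was called at 24 h and ISG15 itself was not. ISG15, a protein attached to others after interferon treatment and the third most abundant gene of the set, stood at 20.15, 23.31 and 18.76 FPKM in CT, 24.24, 20.40 and 22.54 FPKM after 30 min, and 25.88, 23.13 and 22.92 FPKM after 24 h. The groups overlapped, and the log2 fold change at 24 h was 0.16 (adjusted p = 0.21, edgeR). USP18, the protease that removes ISG15 and a brake on the receptor, stood at 2.55, 3.08 and 2.66 FPKM in CT, 2.48, 2.90 and 2.69 FPKM after 30 min, and 4.55, 4.47 and 4 FPKM after 24 h. Its 24 h libraries lay above all others, but its log2 fold change of 0.60 ± 0.133 (SE, adjusted p = 0.00049, edgeR) was close to the threshold. It was not called without replicate 1 of CT (0.53), without replicate 3 of CT (0.57), without replicate 1 of 24 h (0.57) and in 3 other settings. UBA7, the activating enzyme that starts the transfer of ISG15, belongs to the list of other interferon-stimulated genes and rose from 1.17 ± 0.241 FPKM (SD, n = 3) in CT to 6.68 ± 0.296 FPKM after 24 h, a log2 fold change of 2.45 (adjusted p = 2.1e-12, edgeR). The ligase HERC5, of the same list and named, like UBE2L6, after its value was seen, had a log2 fold change of 0.61 (adjusted p = 1.3e-05, edgeR), and was not called without replicate 3 of CT (0.56) or replicate 3 of 24 h (0.55). The conjugating enzyme UBE2L6 had a log2 fold change of 0.34, which was not called.

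Dynamin-like GTPases bind and block viral particles. MX1 and MX2 are neighbours on chromosome 21, between 41361999 and 41470071. MX2 stood at 13.67, 12.78 and 13.90 FPKM in CT, 13.15, 13.30 and 13.83 FPKM after 30 min, and 9.79, 9.66 and 9.54 FPKM after 24 h. The 24 h libraries of MX2 were below all others, and its log2 fold change of -0.52 ± 0.054 (SE, adjusted p = 3.5e-08, edgeR) stayed under the 1.5-fold threshold, so it was not called. Without the filter on FPKM it was -0.59 and called. MX1 had from 26 to 32 counts in CT, from 25 to 30 counts after 30 min and from 62 to 97 counts after 24 h, so that the values of this pair lay in opposite directions. Without the filter MX1 was called higher with a log2 fold change of 1.2 (adjusted p = 4.1e-06, edgeR). GBP1 and GBP2 are induced above all by interferon-gamma. GBP1 had from 0 to 3 counts per library, and GBP2 had from 6 to 12 counts in CT and from 33 to 47 counts after 24 h.

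PARP9, DTX3L and PARP14 lie on chromosome 3 between 122527924 and 122730840 and encode enzymes of ADP-ribosylation and a ubiquitin ligase that forms a complex with PARP9. DTX3L stood at 5.27, 4.58 and 5.92 FPKM in CT, 4.65, 5.19 and 4.36 FPKM after 30 min, and 8.92, 8.24 and 8.60 FPKM after 24 h. It was up-regulated at 24 h (log2 fold change 0.66, standard error 0.088, adjusted p = 1.2e-06, edgeR), and its log2 fold change was 0.56 and not called without replicate 2 of CT. PARP14 stood at 1.11, 1.18 and 1.52 FPKM in CT, 1.28, 1.18 and 1.39 FPKM after 30 min, and 2.77, 2.37 and 2.32 FPKM after 24 h. Its log2 fold change was 0.93 (standard error 0.113, adjusted p = 3.9e-07, edgeR). PARP9 stood at 1.12, 0.99 and 1.03 FPKM in CT, 0.86, 0.92 and 1.10 FPKM after 30 min, and 1.73, 1.57 and 1.56 FPKM after 24 h. In all 3 genes the 24 h libraries lay above CT. PARP9 fell just short of a 1.5-fold change against CT at a log2 fold change of 0.58 (adjusted p = 0.00016, edgeR), and it was called without replicate 1 of CT (0.62), without replicate 2 of 24 h (0.60) and without replicate 3 of 24 h (0.59). The exons of PARP9 and DTX3L overlap by 139 bases on opposite strands.

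SAMD9 and SAMD9L are neighbours on chromosome 7 whose proteins restrict translation in infected cells. SAMD9L stood at 0.84, 0.80 and 1.08 FPKM in CT, 0.60, 0.91 and 0.56 FPKM after 30 min, and 1.85, 1.58 and 1.39 FPKM after 24 h, and it was up-regulated at 24 h (log2 fold change 0.78, standard error 0.163, adjusted p = 0.00031, edgeR). SAMD9 was not called, at 3.63 ± 0.327 FPKM (SD, n = 3) in CT and 4.11 ± 0.126 FPKM after 24 h, and the difference between the changes of this pair was not tested. The ubiquitin ligases TRIM21, a cytoplasmic antibody receptor, and TRIM22, an antiviral ligase, were not called. TRIM21 stood at 12.8 ± 1.27 FPKM (SD, n = 3) in CT and 14.9 ± 0.580 FPKM after 24 h, and TRIM22 stood at 2.42 ± 0.085 FPKM and 2.93 ± 0.079 FPKM.

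Among the remaining genes IFI6, a small protein of mitochondria and the endoplasmic reticulum, was the second most abundant of the set. IFI6 (ENSG00000126709, chromosome 1, 27666064 to 27672212, minus strand) stood at 26.57, 33.49 and 25.44 FPKM in CT, 26.52, 32.24 and 26.52 FPKM after 30 min, and 61.84, 63.29 and 62.01 FPKM after 24 h. All 24 h libraries lay far above the others (log2 fold change 1.08, standard error 0.099, adjusted p = 6.1e-09, edgeR). IFI30, a lysosomal thiol reductase of antigen processing, stood at 0.74, 0.77 and 0.79 FPKM in CT, 0.77, 0.59 and 0.51 FPKM after 30 min, and 1.67, 1.37 and 1.05 FPKM after 24 h. Its log2 fold change at 24 h was 0.78 (standard error 0.229, adjusted p = 0.0056, edgeR), with the widest spread of the called genes, and without replicate 1 of 24 h it fell under the filter. IFI35 had from 10 to 20 counts in CT and from 43 to 57 counts after 24 h, and without the filter its log2 fold change was 1.54 (adjusted p = 6.9e-06, edgeR). IFI44 and IFI44L, neighbours on chromosome 1, had at most 3 counts in any library. XAF1 had 0 counts in all 9 libraries, which at these depths allows a level of up to 0.137 to 0.173 CPM (counts scaled to library depth), for counting error only.

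Altogether 16 of the 39 genes had a mean FPKM of 1 or less over the CT and 24 h libraries. Without the filter on FPKM, 9 of these 16 genes were called higher at 24 h and 0 lower. They were IRF9, ISG20, OAS1, OAS2, IFIT1, IFIT2, MX1, GBP2 and IFI35. Of all 27768 genes tested in that setting, 9.4% were called higher and 7.21% lower.

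**Figure D4:**
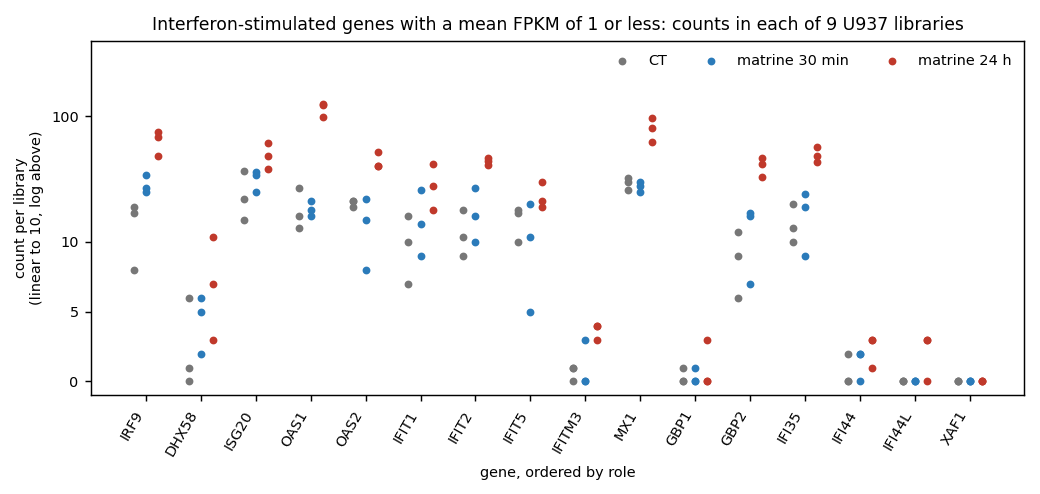
Counts in each of the 9 libraries of the 16 genes with a mean FPKM of 1 or less over the CT and 24 h libraries. The vertical axis is linear up to 10 counts and logarithmic above. Red points (24 h) of OAS1 reach 99 to 125 counts and lie above grey (CT) and blue (30 min) points, while IFI44, IFI44L, GBP1, IFITM3 and XAF1 stay at 4 counts or fewer.

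After 30 min, 21 of the 39 genes were tested and 0 were called by edgeR, DESeq2 or limma, against 0.0949% of all 11587 genes up-regulated and 0.544% down-regulated. Their log2 fold changes lay between -0.29 for IFIH1 and 0.15 for IRF7, with a median of -0.03 against -0.0043 for all genes tested. At an unadjusted p below 0.05 there were 3 of the 21 genes, IFIH1, IRF1 and SAMD9, all lower, or 14.3%, against 11.1% of all genes tested. The 30 min libraries lay wholly below CT in 3 genes, IFIH1, IRF1 and OAS3, and wholly above it in 0, against 8.36% and 5.6% of all genes. By the adjusted p alone 0 of the 21 genes were called, against 0.293% of all genes higher and 1.33% lower. Without the filter on FPKM 0 of 37 genes were called, against 0.112% and 0.354%.

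Compared with 30 min, 12 of 22 tested genes were up-regulated at 24 h and 1 was down-regulated, against 15.4% and 11.5% of the 11981 genes tested. They were those of the comparison with CT except that PARP9 was called (log2 fold change 0.68, adjusted p = 2.7e-05, edgeR) and IFI30 was not tested. The change of IRF1 was larger here, at 1.18, and that of SAMD9L was 1.13. PARP9 and SAMD9L averaged 0.96 and 0.69 FPKM after 30 min and passed the filter here only through their 24 h libraries. A difference was thus in part built into their passing it. IFIH1 had a log2 fold change of 0.36 (adjusted p = 0.0021, edgeR), under the threshold of 1.5-fold. The 24 h libraries lay wholly above those of 30 min in 17 genes and wholly below in 3, against 34.4% and 33.9% of all genes. By the adjusted p alone 16 genes were higher and 3 lower, against 32.5% and 32.6%. Without the filter on FPKM 19 of 38 genes were higher and 2 lower, against 10.0% and 7.02%. This comparison shares its 24 h libraries with the one against CT.

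Other genes of the interferon pathway were read from lists chosen by general knowledge, but with earlier results of these data known. Each count below stands against 15.1% of all genes tested up-regulated and 11.2% down-regulated at 24 h. Of 21 interferon genes, the ligands, 17 had 0 counts in all 9 libraries and the other 4 had 3 or 4 counts each over all libraries together, so 0 were tested. Of 9 receptor and JAK genes 8 were tested, of which 3 were up-regulated at 24 h (37.5%) and 0 were down-regulated. JAK2 rose from 1.25 ± 0.161 to 2.22 ± 0.289 FPKM (SD, n = 3; log2 fold change 0.78, adjusted p = 3.8e-05, edgeR). TYK2, a kinase of the type I receptor, rose from 21.6 ± 0.418 to 38 ± 0.468 FPKM (log2 fold change 0.77, adjusted p = 2.5e-09, edgeR). The shared receptor chain IL10RB had a log2 fold change of 0.91 (adjusted p = 7.5e-11, edgeR). The log2 fold changes of the receptor chains IFNAR1, IFNAR2, IFNGR1 and IFNGR2 were 0.31, 0.54, 0.06 and 0.57 and that of JAK1 was 0.50, all below the threshold. IFNLR1 was listed at 0 in all libraries.

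**Figure D5:**
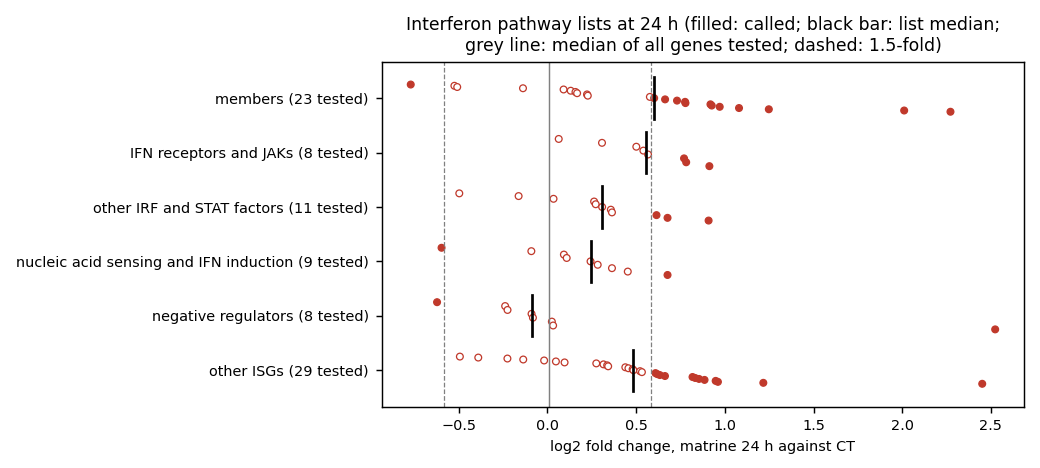
Log2 fold change at 24 h against CT of the tested genes of each list, filled where called, with a black bar at the median of the list and a grey line at the median of all genes tested. The medians are 0.60 for the 23 genes described here, 0.55 for receptors and JAKs, 0.31 for other IRF and STAT factors, 0.24 for nucleic acid sensing, -0.09 for negative regulators and 0.48 for other interferon-stimulated genes.

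Of the 11 tested genes among other IRF and STAT factors, 3 were up-regulated at 24 h (27.3%) and 0 were down-regulated. They were IRF2, with a log2 fold change of 0.91, IRF5, with one of 0.68, and STAT3, with one of 0.61, and STAT3 was just under the threshold without replicate 1 of CT or without replicate 1 of 24 h, at 0.58 in each case. Among 9 tested genes of nucleic acid sensing and interferon induction 1 was up-regulated (11.1%), IRF5, which is on both lists. In that list 1 was down-regulated, TRAF3, with a log2 fold change of -0.60. TRAF3 was not called without replicate 3 of CT (-0.55) or replicate 1 of 24 h (-0.57). Nor was it called with scaling by library totals, in both limma fits, at a mean FPKM above 5 or at a 2-fold threshold. Among 8 tested negative regulators 1 was up-regulated and 1 down-regulated (12.5% each), near the share of all genes. SOCS1, an inhibitor of JAK kinases that interferons induce, rose from 0.437 ± 0.098 FPKM (SD, n = 3) in CT to 2.64 ± 0.212 FPKM after 24 h (log2 fold change 2.52, standard error 0.276, adjusted p = 8.4e-08, edgeR). SOCS1 passed the filter only through its 24 h libraries, so that a difference was in part built into its passing it. The phosphatase gene PTPN11 had a log2 fold change of -0.62 (adjusted p = 1.4e-08, edgeR), and was not called in 5 settings, among them scaling by library totals, both limma fits and a mean FPKM above 5. Of 51 other interferon-stimulated genes 29 were tested, of which 12 were up-regulated (41.4%) and 0 were down-regulated. Among the 12, SAMHD1, named after its value was seen, stood at 0.993 FPKM in CT and also passed the filter only through its 24 h libraries. The largest changes were those of UBA7, given above, PARP10 with a log2 fold change of 1.22, the tryptophanyl-tRNA synthetase WARS1 with one of 0.96 and the helicase DDX60L with one of 0.95. BST2 (tetherin), named for its level as the most abundant gene of that list, was not called, at 228.2 ± 16.1 FPKM (SD, n = 3) in CT and 214.7 ± 1.02 FPKM after 24 h. Over all lists 19 of 63 tested genes (30.2%) were up-regulated at 24 h and 2 (3.17%) were down-regulated. After 30 min 0 of 60 were called in either direction by edgeR, against 0.0949% and 0.544% of all genes, with 6 (10.0%) at an unadjusted p below 0.05, against 11.1% of all genes. By the adjusted p alone 0 were higher and 1 was lower, against 0.293% and 1.33% of all genes. That was IRF2BP2, named after its value was seen, with a log2 fold change of -0.43 (adjusted p = 4.3e-05, edgeR). At 24 h its log2 fold change was 0.27, which was not called.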

How the data were processed

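Counts and FPKM per gene were deposited for 9 U937 libraries, 3 each of CT, 30 min and 24 h of matrine. HL-60 and K562 libraries were not analysed here. The submitters' processing notes name cutadapt 1.9.1, HISAT2 2.0.1 and HTSeq 0.6.1. The authors made the counts as raw reads per Ensembl gene and the FPKM from them by gene length and depth. The paper gives hg38 and the notes GRCh37 as genome, and the annotation release and strand setting were not given in the sources used here. Gene positions are therefore those of GENCODE release 44 (GRCh38), matched by Ensembl identifier, with a symbol for 51996 of 57905 identifiers, and may differ from the models counted. Promoters are RefSeq sequences of GRCh38.p14.

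Counts were fitted with edgeR 4.0.16 (R 4.3.3, TMM, quasi-likelihood test), in 1 fit of 9 libraries per comparison, on genes with a mean FPKM above 1 over the 6 libraries compared. A call needed an adjusted p below 0.05 (Benjamini-Hochberg over all genes tested) and a 1.5-fold change. The standard error is the log2 fold change divided by the square root of F. Exact permutation of 3 against 3 libraries cannot go below p = 0.1 and was not used. The script was tested on simulated data. Alternatives were DESeq2 1.42.0, limma 3.58.1 on log2(FPKM + 0.1) and log2(FPKM + 1), other scalings, filters and folds, a replicate block, and leaving out each library. Same-numbered libraries correlated by -0.13 to 0.072 in their deviations from group means, so the numbers were not taken as pairs. Replicates differed beyond sampling noise and were kept separate. At 17314931 to 21930018 counts per library, 3 counts correspond to 0.137 to 0.173 CPM, for counting error only.

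The 39 genes, the pathway lists and the marker lists were chosen with earlier results of these data known. Values per library are given for genes called in any comparison, the factors and the 3 most abundant genes. From the pathway lists, at most the 4 called genes with the largest change per list are named, with the receptors and JAKs, and any other gene is marked as named after its value was seen. The summed level of the erythroid marker list is not reported here.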

Additional observations from a re-analysis of the deposited data

Results flagged for a closer look

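The comparison of 24 h with 30 min called 13 genes (edgeR, adjusted p below 0.05 and at least 1.5-fold). These are the calls given above for that comparison. The changes of 24 h and of 30 min against CT share the CT libraries, and SAMD9L was not tested at 30 min against CT. The log2 fold change of 24 h against 30 min was 2.10 for IRF7, 1.98 for STAT2, 1.26 for IFIT3, 1.18 for IRF1, 1.13 for SAMD9L and 1.06 for IFI6. It was 0.94 for IFI16, 0.87 for PARP14, 0.81 for OAS3, 0.78 for DTX3L, 0.68 for PARP9 and 0.61 for USP18. For IFITM2 it was -0.79. PARP9 and SAMD9L passed the filter of this comparison only through their 24 h libraries.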

How the results depend on the processing

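Of the 39 genes, 12 were called higher and 1 lower at 24 h against CT. Leaving out 1 library gave 10 to 13 higher and 1 to 2 lower, with a median log2 fold change of 0.56 to 0.64 (0.60 to 0.72 against 30 min). Without the filter on FPKM there were 20 higher, 2 lower and a median of 0.86 (19, 2 and 0.81 against 30 min). The median of all genes was then 0.07 (0.10 against 30 min). Genes of low level entered, but calls of genes already tested changed too. Against CT, MX2 was then called lower at -0.59 and USP18 was no longer called at 0.53. The log2 fold changes of STAT2, IRF7 and IFI6 were lower there too, at 1.944, 2.205 and 1.013 against 2.011, 2.272 and 1.08 with the filter. The TMM scaling was computed anew on the genes kept, and the cause was not tested. With a mean FPKM above 5 there were 5 higher and a median of 0.47 (5 and 0.56 against 30 min), since fewer genes were tested. A 2-fold threshold left 4 higher and 0 lower (6 and 0 against 30 min), and a 1.2-fold threshold or none gave 3 lower in both comparisons. With limma on log2(FPKM + 1) there were 8 higher and a median of 0.41 (9 and 0.48 against 30 min), with OAS3, SAMD9L, USP18 and IFI30 not called against CT, and 13 of the pathway lists were higher. The median was 0.72 against 30 min with library totals, and the cause was not tested. The replicate block left 12 higher and 1 lower at 24 h and 0 at 30 min. STAT2, IRF7 and IFI6 were called at 24 h in every setting run, and IFIT3 in every setting in which it was tested, since it fell under the filter at a mean FPKM above 5.

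Over the pathway lists, 19 were called higher and 2 lower at 24 h (22 and 1 against 30 min). Leaving out 1 library gave 17 to 20 higher and 1 to 2 lower (22 to 24 and 0 to 1 against 30 min). A mean FPKM above 5 gave 10 higher and 0 lower (11 and 0). No fold threshold gave 41 higher and 9 lower (43 and 9), 1.2-fold gave 40 and 5 (39 and 5) and 2-fold gave 3 and 0 (4 and 0). Library totals and limma on log2(FPKM + 0.1) each gave 0 lower in both comparisons, and the cause was not tested. After 30 min, 1 gene, IRF2BP2, was called lower with no fold threshold or with 1.2-fold. Of all calls at 24 h against 30 min 42.8% were lower, and 32.6% with library totals or with limma on log2(FPKM + 0.1).

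Against 30 min the median of the negative regulators was -0.06, and 0.02 with library totals. At 30 min the median of all genes was -0.0043, and 0.0095 with DESeq2 size factors.

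At these depths genes with a few counts per library, such as DHX58, IFITM3, IFI44, IFI44L and GBP1, could not be compared, and small changes of IFIT5 were not detectable.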
